A study of Drosophila melanogaster with 20 samples.

Results

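The cytosolic ribosomal protein genes described here are the genes that encode the protein part of the ribosome outside the mitochondria. They were taken by their symbols: every gene whose probe set carried a single symbol beginning with RpL or RpS and then a number or the letter P, leaving out ribosomal-protein-like genes and the kinase RpS6k. Where a gene had more than 1 probe set, a group of short probes read together as 1 value, the one with the highest mean was used. The rule gave 36 genes, 21 of the large subunit and 15 of the small subunit, of 11982 genes named on the array. The same symbol rule finds 87 genes in the RefSeq gene table, and the other genes were not analysed here.

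Affymetrix Drosophila Genome 2.0 arrays were used to measure RNA in SL2, a cultured Drosophila melanogaster line of embryonic origin that is usually likened to hemocytes, the blood cells of the fly. The knockdown groups received double-stranded RNA (dsRNA) that targets SPS1, the enzyme selenophosphate synthetase 1, and the untreated groups received none; cells were taken at day 1 (5 samples per group), day 3 (2 per group) or day 5 (2 per group). Since no group had a control dsRNA, the response to any dsRNA and the response to losing SPS1 cannot be told apart. For the knockdown at day 5 the source label says untreated but the titles give SPS1 dsRNA, and the grouping follows the titles. The labels call the samples biological replicates without naming separate cultures, so a p-value here reflects the spread among these samples alone. No probe set bears the name of the targeted gene, so the knockdown was not measured here by name.

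The large subunit joins amino acids into protein, and the small subunit reads the messenger RNA. Growing cells make ribosomal proteins in nearly equal amounts from very abundant messages, and in Drosophila the loss of 1 copy of many of these genes causes the Minute phenotype of slow development and thin bristles. Several fly genes have a duplicate, marked a and b, of which 1 copy is often used mainly in the germline. Both the translation of these messages and the making of ribosomes are controlled by the TOR kinase pathway, which responds to nutrients.

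All values below are log2 readings, and a difference is the mean with SPS1 dsRNA minus the mean of untreated cells of the same day, with its standard error (SE) from limma. A gene was called higher or lower when its p, adjusted over all 18769 probe sets tested, was under 0.05. In these whole-culture samples, fewer cells making a message and less message per cell cannot be told apart. Across all probe sets the day 5 knockdown samples lay farthest from the rest: their median root mean square difference from the other samples was 0.357 and 0.351, against 0.238 to 0.296 in the other 16 samples. Of the hemocyte markers, srp (10.15), drpr (9.14) and crq (8.46) read high, while Hml (5.97), Pxn (6.19), Col4a1 (5.27), vkg (4.97), eater (4.82) and NimC1 (4.57) read low. Markers of neuron, muscle, fat body and germline that were named on the array lay between 3.50 for Yp1 and 6.44 for elav.

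Of the 36 genes, 30 read above 13, and in all 18 samples each of these 30 lay between the 99.23 and the 99.99 percentile of its array. Their means ran from 13.08 for RpL34a to 14.23 for RpL15. The highest reading on any array was 14.359, so these genes read close to the top of the scale; whether changes are compressed there was not tested. The highest means were those of RpL15, RpLP1 (14.21), an acidic protein of the stalk that recruits elongation factors, RpL41 (14.16), the smallest ribosomal protein, RpS18 (14.11) and RpL23 (14.10). A reading depends on its probes as well as on the RNA, so the order of these means is not an order of message abundance.

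The other 6 genes formed a separate set of lower readings. RpS10a read 10.82, RpS19b 7.51, RpS28a 6.35, RpS5b 6.09, RpL37-2 5.95 and RpL10Aa 4.21, as means over the 18 samples. All 6 bear a letter or number that marks 1 of several copies of a gene. RpS5b and RpS19b are known in Drosophila mainly from the germline, and the germline markers vas (3.80) and bam (4.20) read low in these cells. RpL10Aa read below the lowest array median, 4.53, so its readings lie where signal and background are hard to separate.

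The 30 genes above 13 varied little. Their SD within groups had a median of 0.0371, from 0.0166 for RpS27A to 0.0915 for RpL41, and over all 18 samples a gene moved by between 0.074 and 0.417 in total. The 133 probe sets of any gene that read above 13 had a median SD of 0.0515. Of these, 103 are not the chosen probe set of a ribosomal protein gene listed here. They include a further probe set of RpS29, which read 13.95. The median over all probe sets was 0.1403. By reading, the median SD of all probe sets was 0.0301 at 14 to 14.5, 0.2278 at 6 to 6.5 and 0.091 at 2.5 to 3. Small SDs thus went with the highest and also with the lowest readings on this array. Whether the spread of the 30 genes is lower than that of other bright probe sets was not tested. The 6 lower genes had SDs from 0.1169 for RpL37-2 to 0.4339 for RpS19b.

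**Figure D1:**
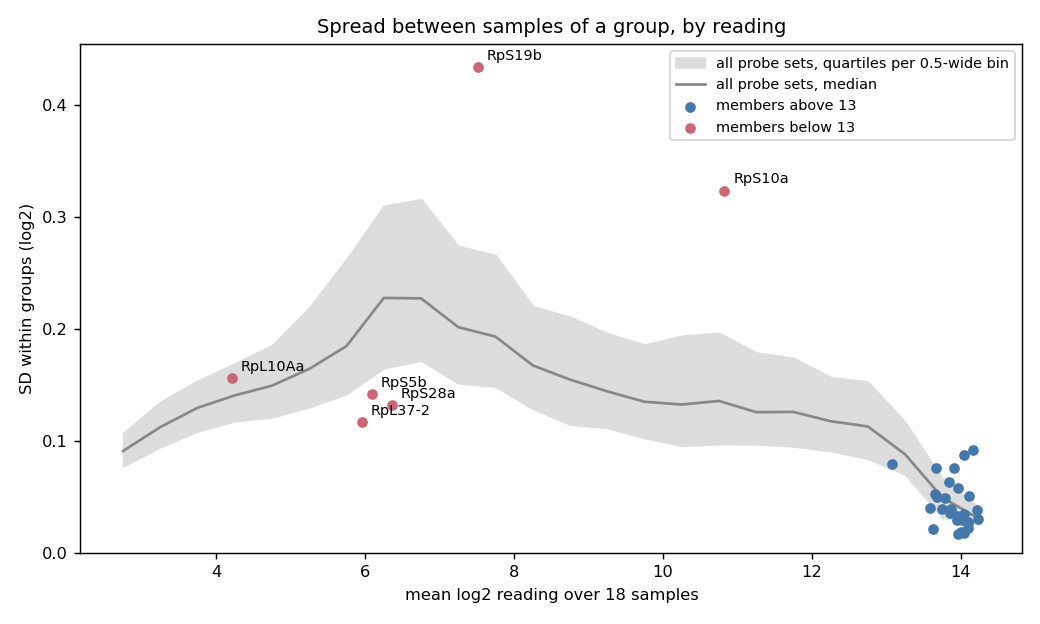
Within-group SD (log2 units) of every ribosomal protein gene against its mean log2 reading, with the median SD of all probe sets by reading for comparison. The 30 genes above 13 lie at SDs of 0.0166 to 0.0915, and RpS10a and RpS19b stand highest at 0.3237 and 0.4339.

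RpS10a was the gene of the 36 that fell with SPS1 dsRNA, at day 5, by 2.37-fold, and its differences at days 1 and 3 did not pass the test. It encodes 1 copy of a small-subunit protein, whose human counterpart RPS10 is marked with ubiquitin when ribosomes collide. The partner copy was not analysed here, so the message for this protein as a whole was not read. In untreated cells RpS10a read 11.08, 11.25, 11.04, 10.93 and 11.21 at day 1, and in knockdown cells 10.97, 11.04, 10.90, 10.90 and 11.15. The groups overlapped, with a difference of -0.11 (SE 0.18, adjusted p = 1).

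At day 3 the untreated samples read 11.16 and 10.52 and the knockdown samples 10.98 and 9.78. Replicate 2 was the lower of each pair, and the groups overlapped. The difference of -0.46 (SE 0.29, adjusted p = 1) was 0.14 without knockdown replicate 2 and -1.06 without knockdown replicate 1. Without untreated replicate 1 it was -0.14, and without untreated replicate 2 it was -0.78. Its size thus depended on single samples, and its sign on knockdown replicate 2. The technical array of each group, averaged with replicate 2 here, read 10.54 and 9.77, close to the 10.50 and 9.79 of the biological arrays of replicate 2. The actin 3′ minus 5′ reading, a sign of RNA or labelling quality, was 1.25 and 1.04 in these technical arrays and 0.121 to 0.545 in the biological ones. Without the technical arrays the day 3 difference was -0.45.

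At day 5 RpS10a read 11.41 and 10.76 in untreated cells and 9.80 and 9.88 in knockdown cells. Both knockdown samples lay below both untreated samples, and below every other RpS10a reading of the series except knockdown day 3 replicate 2. The mean went from 11.09 ± 0.46 (SD, n = 2) to 9.84 ± 0.06 (SD, n = 2), a fall of 2.37-fold (log2 change -1.24, SE 0.29, adjusted p = 0.0234). With the replicate number as a block the adjusted p was 0.000331, while the call was lost with the compared groups alone (adjusted p = 0.145) and with array weights (adjusted p = 0.0669). The actin 3′ minus 5′ reading of these samples was 0.374 and 0.121 untreated and 0.345 and 0.172 in knockdown cells. The call was lost without untreated replicate 1 (-0.92, adjusted p = 0.289), without knockdown replicate 1 (-1.20, adjusted p = 0.167) or without knockdown replicate 2 (-1.29, adjusted p = 0.0585), and was kept without untreated replicate 2 (-1.57, adjusted p = 0.024).

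The fall of RpS10a was also seen against day 1 of the same treatment: day 5 minus day 1 was -1.15 (SE 0.24, adjusted p = 0.0105) in knockdown cells and -0.017 in untreated cells. The knockdown call was lost without knockdown day 5 replicate 1 (adjusted p = 0.122) or replicate 2 (adjusted p = 0.0561), and with array weights (adjusted p = 0.0566). The test of the difference itself, the change at day 5 minus that at day 1, gave -1.13 (SE 0.34) and did not pass (adjusted p = 0.161). That test passed with the replicate block (adjusted p = 0.00314) and with the technical arrays averaged with replicate 1 (adjusted p = 0.0142). It did not pass with array weights (adjusted p = 0.252), cyclic loess (0.221), an intensity trend (0.135) or array medians subtracted (0.12). The main fit shares 1 spread over all 6 groups, where the SD of RpS10a ran from 0.060 in knockdown day 5 to 0.851 in knockdown day 3. What part this had in the result was not tested. From the compared groups alone, here those of days 1 and 5, the test passed as well (adjusted p = 0.00676). The separate fit to the day 5 groups alone had lost the day 5 call (adjusted p = 0.145). In each of the 9 pairs of samples with the same day and number, RpS10a was lower with SPS1 dsRNA. The pair differences ran from -0.211 to -0.033 at day 1 and were -1.613 and -0.873 at day 5, and 1.02% of all probe sets were lower in all 9 pairs.

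**Figure D2:**
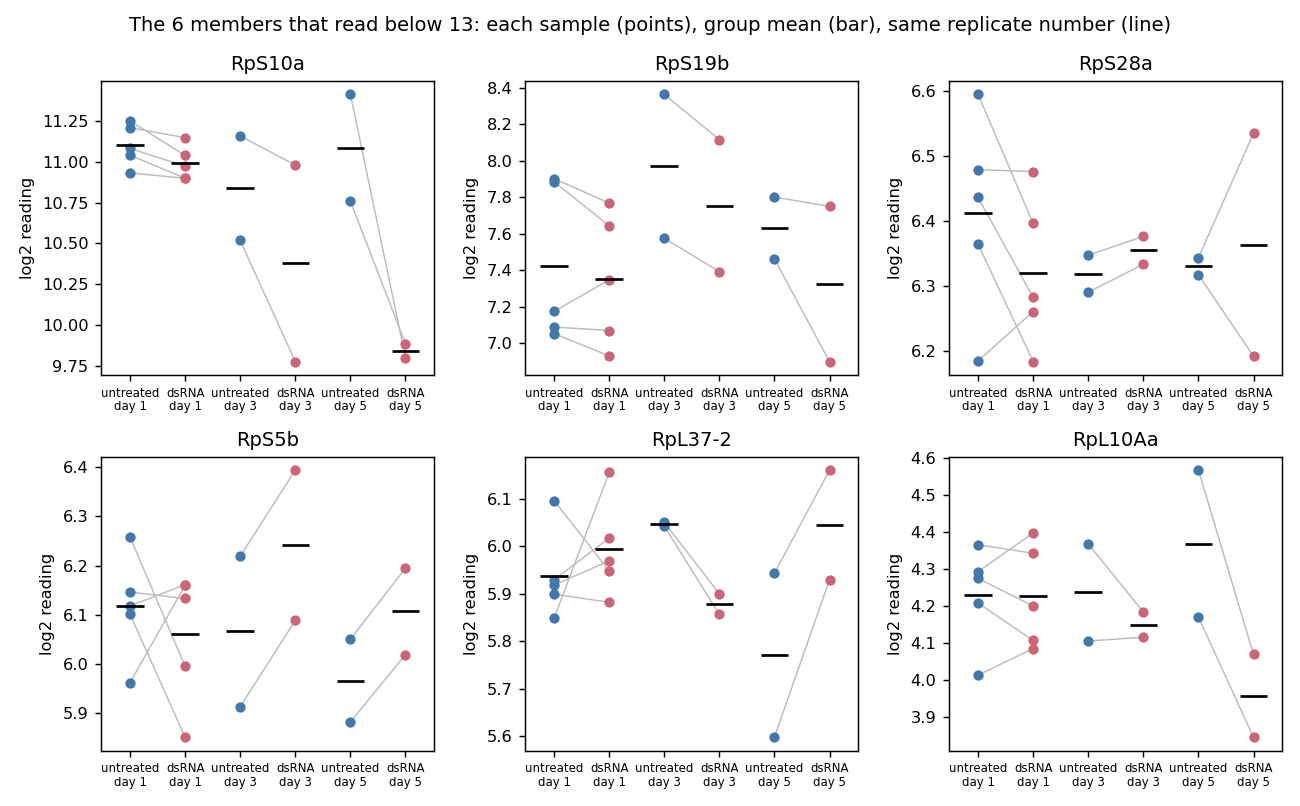
Log2 reading of each of the 6 lower-reading genes in every one of the 18 samples, by treatment and day, with bars at group means. RpS10a at day 5 reads 9.80 and 9.88 with SPS1 dsRNA against 11.41 and 10.76 untreated, while RpS19b spreads widely in every group.

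Over all 36 genes, 0 were called at day 1, where limma called 0% of all probe sets, and 0 at day 3, where it called 0.176%. At an unadjusted p under 0.05 the counts were also 0 and 0 (all probe sets 1.55% and 3.37%), and with the replicate block 0 were called on both days, where it called 0% and 1.25% of all probe sets. At day 5, 1 gene was called, RpS10a, where 2.79% of all probe sets were called (1.59% lower); the share of the 36 genes, 2.78%, is about that of all probe sets. Of the 36, 3 (8.33%) had an unadjusted p under 0.05 at day 5, against 12.6% of all probe sets. The replicate block called 2, RpS10a and RpL10Aa, where 12.2% of all probe sets passed. Of the 133 probe sets that read above 13, 1 (0.752%) was called at day 5, and it belongs to no ribosomal protein gene listed here.

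RpL10Aa encodes a copy of the protein of the L1 stalk, which helps transfer RNA leave the ribosome. Its readings at day 5 were 4.57 and 4.17 in untreated cells and 4.07 and 3.84 in knockdown cells, so the groups did not overlap. The difference was -0.41 (SE 0.15, adjusted p = 0.213), and among the alternatives run it passed only with the replicate block (adjusted p = 0.00882). With 1 sample left out it ran from -0.61 to -0.21.

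The median difference over the 36 genes was 0.0082 at day 1, 0.0189 at day 3 and 0.0267 at day 5, against 0.0014, 0.0017 and 0.0145 over all probe sets, and at day 5 it was -0.0402 when each array's median was subtracted (all probe sets -0.0525), so its sign depends on the scaling. At day 5 the differences of the 30 genes above 13 ran from -0.134 to 0.138, and on each of the 3 days 0 of the 30 reached 0.2 in either direction. The SEs for these genes were 0.0444 to 0.066 at day 1 and 0.0701 to 0.1044 at days 3 and 5. The arrays were scaled to nearly the same distribution, with the 500 highest readings differing by at most 0.177 at equal rank, so a joint shift of most of the brightest genes would be largely removed.

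**Figure D3:**
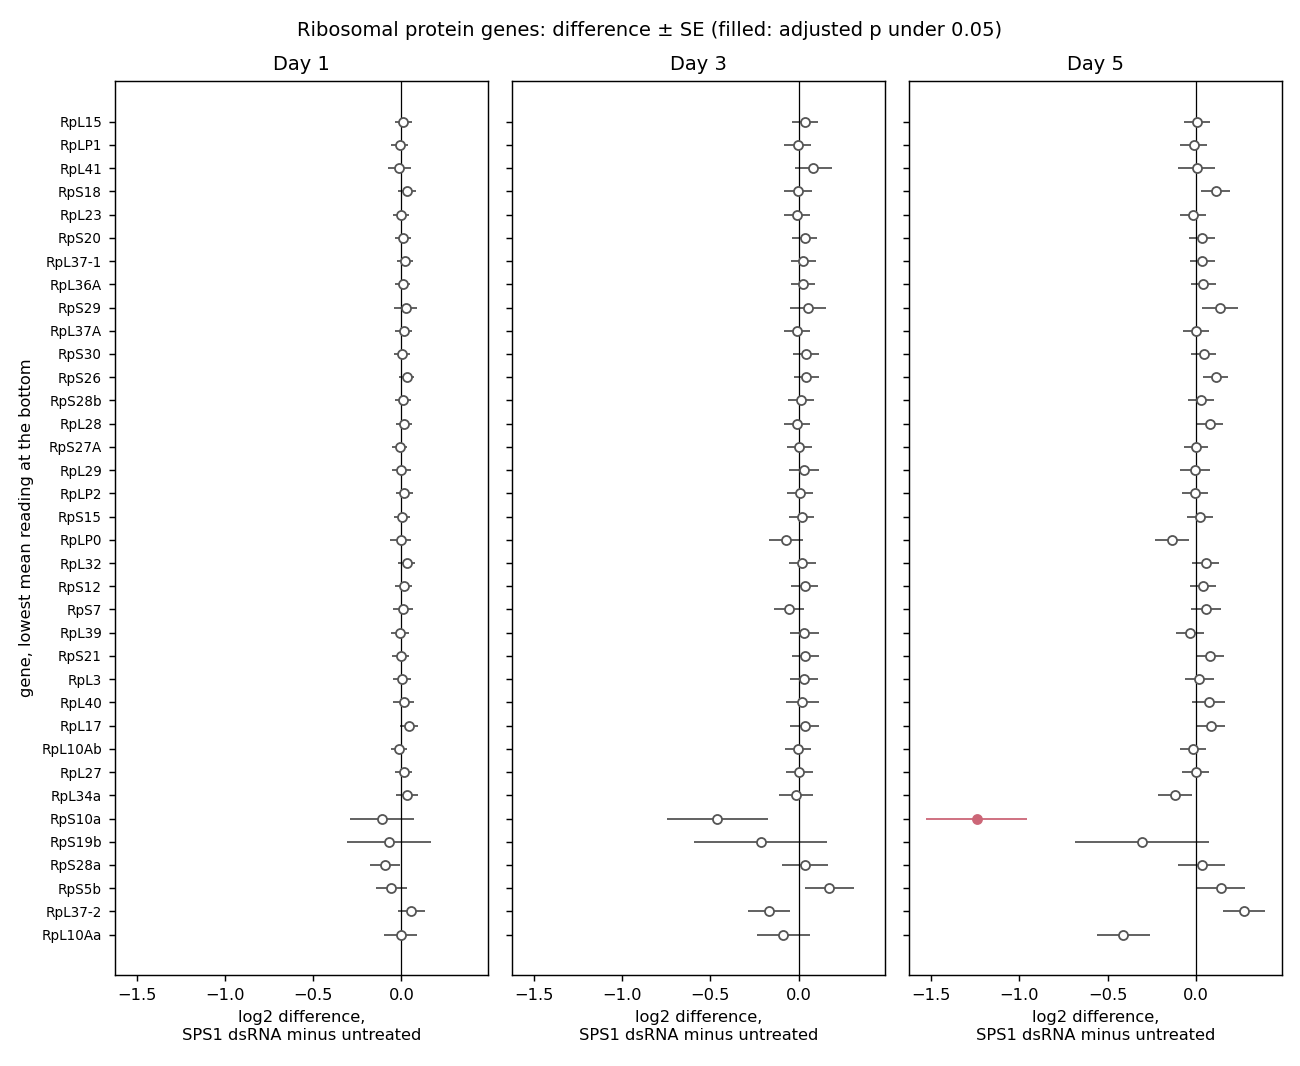
Difference, SPS1 dsRNA minus untreated (log2 units, bars are SE) of each of the 36 genes at days 1, 3 and 5, with genes ordered by mean reading. Nearly all genes lie within 0.2 of 0, and RpS10a at day 5 stands alone at -1.24.

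The large subunit genes had a median difference of 0.0025 at day 5, 11 above 0 and 10 below, and the small subunit genes 0.0415, 13 above 0 and 2 below. These signs depend on the scaling: with array medians subtracted the medians were -0.0645 and -0.0255, with 4 of 21 and 5 of 15 genes above 0. The median over all probe sets was then -0.0525. With cyclic loess, another scaling, the large subunit median was 0.0028, 12 above 0 and 9 below. The small subunit median was then 0.0466, 13 above 0 and 2 below, and that of all probe sets was 0.0016. The 5 largest positive values were RpL37-2 (0.27), RpS5b (0.14), RpS29 (0.14), a zinc-binding protein of the small subunit, RpS18 (0.11) and RpS26 (0.11), which lies where messenger RNA leaves the ribosome. The adjusted p values of these 5 ran from 0.348 to 0.788. Besides RpS10a and RpL10Aa, the largest negative values were RpS19b (-0.31, SE 0.38), RpLP0 (-0.13, SE 0.095) and RpL34a (-0.12, SE 0.097), and 0 of these 3 passed.

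The stalk of the large subunit is built from RpLP0, RpLP1 and RpLP2. RpLP0, which anchors it, read 13.97 ± 0.047 untreated and 13.83 ± 0.083 in knockdown cells at day 5, and the groups did not overlap. The difference was -0.13 (SE 0.095, adjusted p = 0.656). RpLP1 and RpLP2, its acidic partners, differed by -0.012 and -0.0055, with adjusted p of 0.987 and 0.994.

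RpL40 and RpS27A are made as fusions with ubiquitin, from which the ribosomal protein is cut. RpL40 differed by 0.07 (SE 0.095, adjusted p = 0.858) at day 5 and RpS27A by 0.0020 (SE 0.070, adjusted p = 0.996). RpL40 was higher with SPS1 dsRNA in 8 of the 9 pairs, and in 7 with each sample's median subtracted. RpS12 was likewise higher in 8 pairs, and in 6 with medians subtracted. The share of all probe sets higher in 8 pairs was not counted. RpS30, cut from a fusion with a ubiquitin-like protein, differed by 0.04 (adjusted p = 0.899).

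Genes of known place in the ribosome, named after their values were seen, gave day 5 differences of similar size. Around the tunnel through which the new protein leaves, RpL17 differed by 0.08 and RpL39 by -0.03. RpL3, which reaches toward the site where amino acids are joined, differed by 0.02. RpS12, which in Drosophila takes part in the competition between cells that differ in ribosomal protein gene dose, differed by 0.04, and the adjusted p of these 4 genes ran from 0.784 to 0.967.

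By whether groups overlap, 0 genes were apart at day 1 (all probe sets 0.128% higher, 0.234% lower). At day 3, 7 genes were higher in every knockdown sample (19.4%, all probe sets 12.1%) and 2 were lower (5.56%, all probe sets 12.2%). At day 5 it was 11 higher (30.6%, all probe sets 17.8%) and 5 lower (13.9%, all probe sets 17.5%). RpL37-1, RpS12, RpS26 and RpS29 were among those higher on both days. With each sample's median subtracted, the higher counts were 0 at day 3 (all probe sets 10.5%) and 1 at day 5 (all probe sets 10.9%), so they too depend on the scaling. With 2 samples per group this is a weak criterion, and the sizes for genes above 13 stayed under 0.2.

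RpS26 and RpL32, the latter known as rp49 and a common reference gene in fly experiments, were higher with SPS1 dsRNA in each of the 9 pairs, where 0.645% of all probe sets were. RpL32 was named after its values were seen. The pair differences of RpS26 ran from 0.003 to 0.141 and those of RpL32 from 0.003 to 0.07. With each sample's median subtracted they were higher in 7 and 6 of the 9 pairs. RpS29 went the other way, from 7 pairs higher as deposited to 9 with medians subtracted. The share of all probe sets under that scaling was not counted. The day 5 adjusted p was 0.593 for RpS26 and 0.868 for RpL32, so neither passed.

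At day 1 RpS19b differed more between replicate numbers than between treatments. On that day replicates 1 and 5 read 7.89 and 7.90 untreated and 7.64 and 7.77 with dsRNA. Replicates 2 to 4 lay between 6.93 and 7.35 in both groups. At day 3 it read 7.58 and 8.36 untreated and 7.39 and 8.12 in knockdown cells, and at day 5 7.46 and 7.80 against 6.90 and 7.75. The knockdown sample was lower in 8 of the 9 pairs, and the share of all probe sets lower in 8 was not counted. The groups overlapped on all 3 days, and 0 of the 3 comparisons passed, with or without the replicate block.

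**Figure D4:**
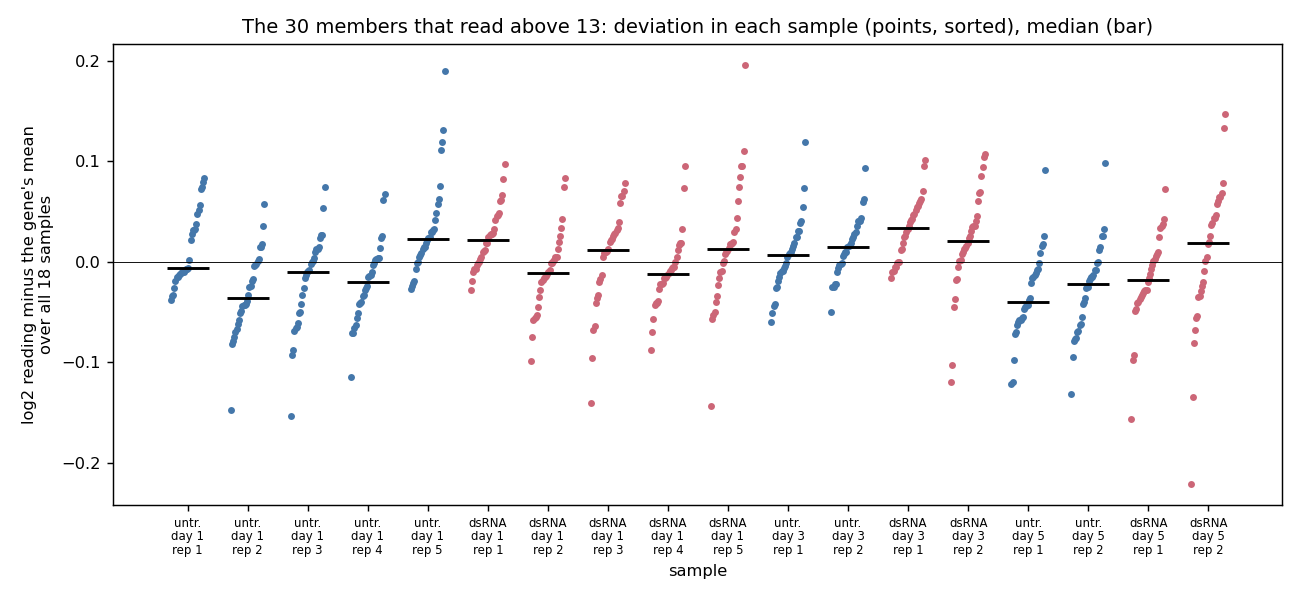
Deviation of the 30 genes above 13 from their own means (log2 units) in each of the 18 samples, with the median per sample. The medians lie between -0.0403 in untreated day 5 replicate 1 and 0.034 in knockdown day 3 replicate 1.

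The paralog pairs on the array were RpL10Aa with RpL10Ab and RpS28a with RpS28b, and RpL37-1 with RpL37-2 was added after its values were seen. In each pair 1 copy read near the top of the array and the other low: RpL10Ab 13.62, RpS28b 13.98 and RpL37-1 14.09 had means above 13. Different probe sets cannot be set against each other as levels, so only the movement of their difference is described. RpL10Aa minus RpL10Ab was -9.41 and -9.40 at day 1, untreated and knockdown, and -9.24 and -9.64 at day 5, and the day 5 difference with SPS1 dsRNA was -0.41 for RpL10Aa and -0.02 for RpL10Ab. RpS28a minus RpS28b stayed between -7.68 and -7.55 in all 6 groups. RpL37-1 minus RpL37-2 was 8.14 and 8.10 at day 1, 8.06 and 8.25 at day 3, and 8.30 and 8.06 at day 5, untreated and knockdown in that order, and it moved in opposite ways at days 3 and 5.

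**Figure D5:**
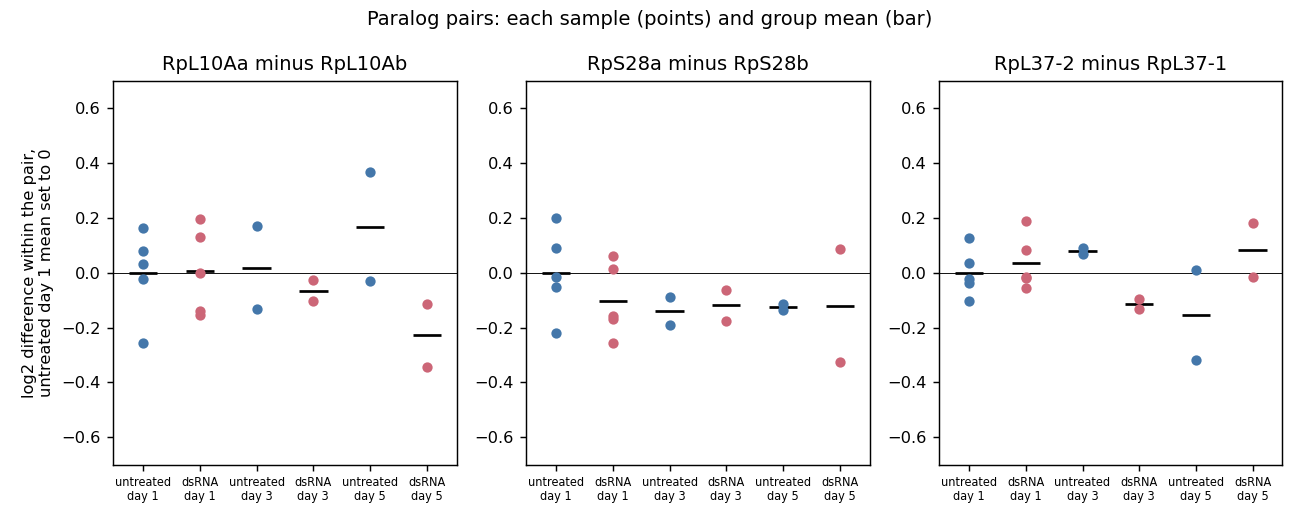
Difference in log2 reading between the low and the high copy of each of 3 paralog pairs in every sample, with the untreated day 1 mean of the pair set to 0. Before the day 1 mean was set to 0, RpL10Aa minus RpL10Ab was -9.24 untreated and -9.64 with SPS1 dsRNA at day 5.

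Of the 36 probe sets, 14 carry the suffix _s_at, which the array maker uses for sets that may match more than 1 transcript or gene, so some readings may combine copies. Neither RpS10a nor RpL10Aa is among them. The partners of RpL34a, RpS10a, RpS19b and RpS5b were not analysed here. There were 4 genes with further probe sets, and these read from 3.20 to 13.95 on average, and 0 of these passed on any of the 3 days. The second RpS7 probe set, which read 6.31, differed by -0.33 at day 5 (SE 0.25, adjusted p = 0.69), while the chosen one differed by 0.06. For RpS29 the further probe sets, reading 13.95 and 3.20, differed by 0.06 and 0.11 at day 5, against 0.14 for the chosen one. Those of RpS30 (-0.14) and RpL3 (-0.09 and -0.08) lay below 0 at day 5, while the chosen ones lay above 0.

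With culture time and no knockdown, 0 of the 36 genes were called at day 3 against day 1 (all probe sets 0.107%) and 0 at day 5 (0.186%), and 0 at an unadjusted p under 0.05 in both (all probe sets 6.37% and 10.8%). In knockdown cells 0 were called at day 3 (0.245%; 1 at an unadjusted p under 0.05, all probe sets 7.54%) and 1, RpS10a, at day 5 (3.29%). With an intensity trend in the fit RpL34a also passed at day 5 (-0.26, adjusted p = 0.0298, all probe sets 3.17%), a gene that read 13.15 ± 0.074 (SD, n = 5) at day 1 and 12.89 ± 0.046 (SD, n = 2) at day 5 in knockdown cells. Without the trend its adjusted p was 0.107.

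Groups of untreated cells were apart from day 1 in 1 gene at day 3, higher (all probe sets 4.86%), and 0 lower (5.74%). At day 5 they were apart in 1 higher (8.07%) and 5 lower (10.4%). In knockdown cells these counts were 4 higher (3.89%) and 0 lower (6.99%) at day 3, and 1 higher (6.67%) and 5 lower (8.6%) at day 5.

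When the day 3 and day 5 differences were each tested against that of day 1, 0 and 0 of the 36 genes passed in limma (all probe sets 0.0213% and 1.4%), with 0 and 2 (5.56%) at an unadjusted p under 0.05 (all probe sets 2.34% and 9.25%). With the replicate block 0 passed at day 3 (all probe sets 0.336%) and 2, RpS10a and RpL10Aa, at day 5 (6.82%).

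A list of 69 genes for translation factors, the TOR pathway and regulators of ribosomal protein genes was set beside these, of which 54 were measured. Tor, Thor, Rheb, Myc and Xrp1 were among those not measured here by name. The 54 genes gave 0 calls at days 1 and 3, and at day 5 1 of 54 (1.85%, all probe sets 2.79%), which was higher. Their median differences were -0.0219, -0.0356 and -0.0675. The called gene was REPTOR-BP, the partner of REPTOR in the transcription that follows loss of TORC1 activity. It read 9.15 and 9.31 untreated and 10.12 and 10.19 in knockdown cells at day 5, a rise of 1.90-fold (0.93, SE 0.19, adjusted p = 0.0106). The untreated samples of day 5 were themselves below those of day 1, by 0.51 (adjusted p = 0.236), and the call was lost without untreated or knockdown day 5 replicate 1, or with the compared groups alone. With the replicate block 6 of the 54 passed at day 5, 1 higher and 5 lower (11.1%, all probe sets 12.2%).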

How the data were processed

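Per the submitters' processing notes, the authors deposited log2 values from RMA, which corrects background, normalizes between arrays and summarises the probes of a set. In the deposited table, 20 arrays held 18952 probe sets, of which 183 control sets were left out, and values spanned 2.475 to 14.359. The 2 technical arrays of day 3 were averaged with replicate 2, leaving 18 samples. Names came from the platform annotation, and all 36 genes matched the RefSeq table of Release 6 plus ISO1 MT by identifier. One model over all 6 groups was fitted in limma 3.58.1 (R 4.3.3; 12 residual and 4.26 prior degrees of freedom) with Benjamini-Hochberg adjustment over 18769 probe sets. It was also run on simulated data with independent samples. Those data lack the correlation of same-numbered samples described below, so that run cannot judge the fit for correlated samples. Values stayed on the deposited log2 scale with no further filter. The number of arrays limits the precision.

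Deviations of same-numbered samples correlated at 0.689 to 0.838 in the 5 day 1 pairs, 0.782 at day 3 and 0.712 at day 5 (probe sets with mean log2 above 6). At day 1 the highest correlation with a sample of another number ran from 0.438 to 0.609. With 2 samples per group the deviations mirror each other, so days 3 and 5 give 1 value each. Pairing by number thus comes from the data, not from the labels, and the replicate block was an alternative. Its p values rest on a pairing read from these same data. Others were scaling, an intensity trend, array weights, the compared groups alone, the technical arrays, the mean of a gene's probe sets, and each sample left out.

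Genes and lists were chosen with earlier results of these data known. Named genes were those called in any of 9 comparisons, a/b pairs, the 5 largest changes each way at day 5, the 5 highest and lowest means, the stalk and ubiquitin fusion genes, and called genes of the related list. Promoters and proteins were not analysed here. No coordinates are printed, because no source used here names the build behind the array.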

Additional observations from a re-analysis of the deposited data

Results flagged for a closer look

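In 3 of 72 groups of 5 samples 1 sample lay far from the others of its group, and chance marks about 1 in 20. RpL15 read 14.292 in knockdown day 1 replicate 1, against 14.215 to 14.23 in the other 4. RpL17 read 13.769 in untreated day 1 replicate 5, against 13.584 to 13.631. RpS30 read 14.065 in untreated day 1 replicate 2, against 13.995 to 14.007. REPTOR-BP of the related list changed more at day 5 than at day 1, by 0.95 (limma, SE 0.23, adjusted p = 0.0462).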

How the results depend on the processing

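Of 1761 values of single genes under alternatives, 1664 kept their direction and side of the threshold, 88 that passed in neither fit changed sign, 8 lost a call, 1 gained one and 0 reversed a call. The number of genes called at day 5 was 1, 2 with the replicate block, 0 with the compared groups only, 0 with array weights and 0 to 1 with 1 sample left out. For knockdown cells at day 5 against day 1 it was 1, 2 with an intensity trend, 0 with array weights and 0 to 1 with 1 sample left out. At day 3 against day 1 it was 0, 1 with the technical arrays averaged with replicate 1 and 0 to 1 with 1 sample left out. For the change at day 5 minus that at day 1 it was 0, 2 with the replicate block, 1 with the technical arrays averaged with replicate 1, 1 with the compared groups only and 0 to 1 with 1 sample left out. Besides the main fit, the share of all probe sets called was counted only with the replicate block and the intensity trend. For the other settings these counts thus have no share to be set against. The replicate block could not be fitted between days, since each block lies within a day. Subtracting array medians gave median differences over the 36 genes of 0.0006 at day 3, -0.0402 at day 5, 0.0044 for knockdown day 3 minus day 1, 0.0357 for untreated day 5 minus day 1 and -0.0485 for the change at day 5 minus that at day 1. Cyclic loess gave 0.0575 and 0.0437 for knockdown days 3 and 5 minus day 1, and 0.0737 and 0.0372 for untreated. The mean of a gene's probe sets gave 0.0065 at day 5. With 1 sample left out the day 5 median ran from 0.0055 to 0.037, and that of knockdown day 5 minus day 1 from -0.0308 to 0.0032. The cause of these shifts was not tested. Whether high readings compress changes in 30 of the 36 genes was not tested.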
